A study of Mus musculus with 6 samples.

Results

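The glutamate transporters and the glutamine cycle were described here through 10 genes, chosen by symbol from the 24421 genes listed in every library. They were the sodium-dependent glutamate transporters Slc1a1, Slc1a2, Slc1a3 and Slc1a6, the neutral amino acid exchangers Slc1a4 and Slc1a5, the enzyme glutamine synthetase (Glul), and the glutamine transporters Slc38a1, Slc38a3 and Slc38a5. The choice was by name and function, with no threshold on a measured value, and was made with earlier results of these data known. RNA-seq was performed on 6 libraries, 1 from each of 6 male mice, with 3 libraries per group. The Sox9 KO mice carried floxed Sox9 alleles (Sox9 fl/fl), and the control mice, of the C57BL/6J strain, carried unmodified Sox9. Both groups received the same virus in the olfactory bulb, an AAV in which a GFAP promoter drives iCre and the red fluorescent protein TurboRFP, so that the controls also expressed Cre. Cells that were positive for TurboRFP were collected by fluorescence-activated sorting 4 weeks after the injection. The study's methods describe its mice as adult unless stated otherwise and give no separate age for these 6, and the sorted population is defined by a viral GFAP promoter rather than by an endogenous protein.

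Glutamate released at synapses is cleared mainly by astrocytes, through the transporters GLAST, encoded by Slc1a3, and GLT-1, encoded by Slc1a2. Inside the astrocyte, glutamine synthetase joins ammonia to glutamate, and the resulting glutamine leaves through transporters such as SNAT3, encoded by Slc38a3. Neurons take glutamine up and return it to glutamate, which closes the cycle, and in the olfactory bulb both the sensory afferents and the mitral and tufted cells release glutamate.

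Library depth ranged from 18242129 to 86906527 reads on genes, so that 1 read was worth between 0.395 and 1.58 normalized counts, the read count divided by a size factor per library. Sox9 itself stood between 4921 and 6562 normalized counts in the control libraries and between 52.6 and 64.3 in the Sox9 KO libraries. The levels of cell type markers differed between the genotypes. The summed level of 16 astrocyte markers, led by Aqp4 and Slc4a4, was 277130 to 304604 normalized counts in controls and 19038 to 24142 in Sox9 KO libraries, and all 16 were lower. The summed level of 15 microglia and macrophage markers, led by Ctss and Csf1r, was 233027 to 259996 against 909140 to 1038864, and 14 of the 15 were higher, the exception being Fcrls. Of 14 neuron markers, led by Snap25 and Map2, 13 were lower, with sums of 24747 to 30577 against 4193 to 6706, the exception being Elavl4. Of 6 border macrophage markers, 4 were lower and 2 higher under the calls defined below. Called lower were 8 of 9 oligodendrocyte, 6 of 6 oligodendrocyte precursor and 5 of 9 mural markers. The same held for 5 of 6 olfactory ensheathing and 2 of 5 ependymal markers. Among 10 endothelial markers 5 were called lower and 2 higher. No marker of these lists was at 0 in a whole group. In sorted bulk RNA, fewer cells of a type and less RNA per cell cannot be told apart, and this holds for every level below.

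Expression was compared with limma on log2(normalized count + 1) over the 18413 genes with a mean of at least 1, and a gene was called when its Benjamini-Hochberg adjusted p was under 0.05 and its change reached 1.5-fold. All 10 members were tested. In Sox9 KO libraries 7 members fell (Slc1a1, Slc1a2, Slc1a3, Slc1a4, Slc1a6, Glul and Slc38a3), Slc38a1 rose, and Slc1a5 and Slc38a5 were not called. Among all tested genes, 28.8% were called lower and 22.2% higher, 51.0% in either direction. The median log2 change of the 10 members was −2.46, against −0.07 over all tested genes. The members did not move as a block: their log2 changes ran from −4.61 for Slc38a3 to 0.66 for Slc38a1. All Sox9 KO libraries lay below all control libraries for 7 members and above them for 2. Among all tested genes, 34.7% had every Sox9 KO library lower, 32.4% had every one higher, and 67.2% had groups that did not overlap in one direction or the other. The call of Slc1a6 rested on few reads and was lost in other fits, as given with its values.

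**Figure D1:**
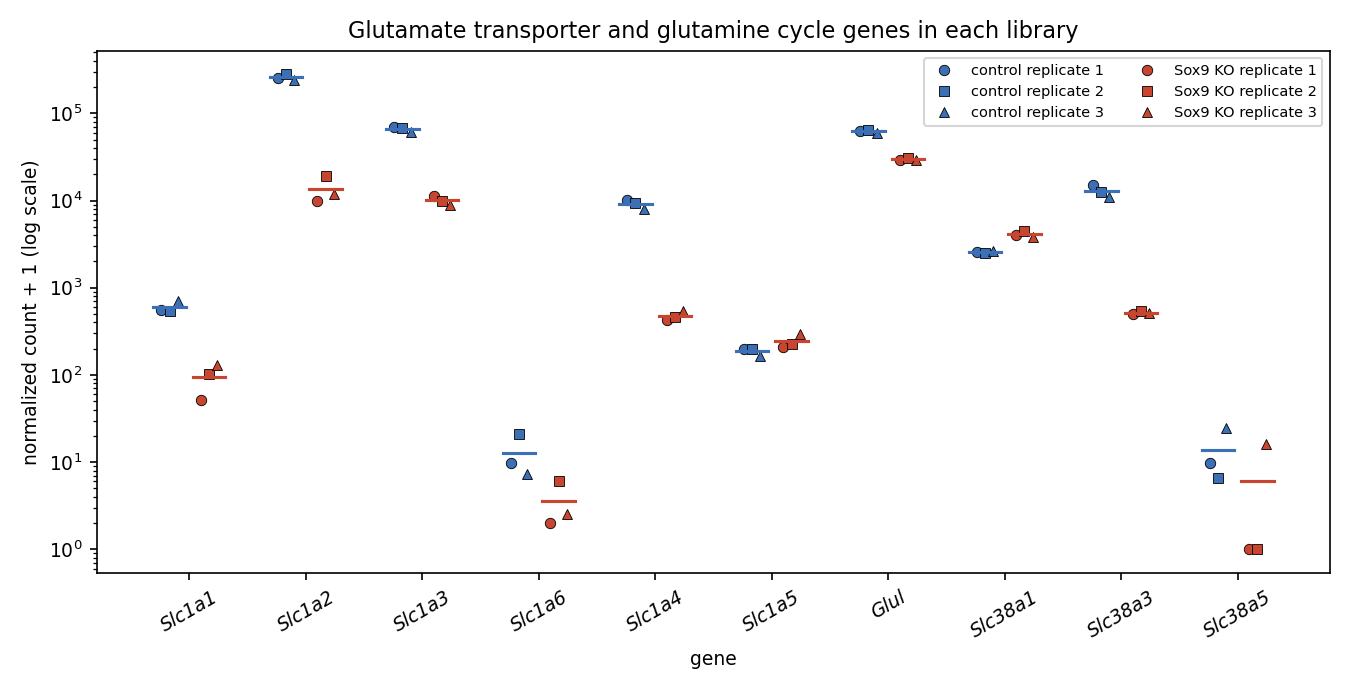
Normalized count + 1 (log axis) of the 10 genes in each of the 3 control and 3 Sox9 KO libraries, 1 point per library, with lines at the group means. The groups are separate for 9 genes and overlap for Slc38a5; Slc1a5 and Slc38a1 are the genes whose Sox9 KO points lie higher.

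The upstream DNA of the 3 members with the highest control levels is shown because these abundant genes fell by very different amounts in Sox9 KO libraries. Each line gives the 250 bases before the RefSeq start site (GRCm38.p6), 5′ to 3′ on the strand of the gene. Capitals mark the CCAAT box, the GC box with the letters GGGCGG, the TATA box with the letters TATAAA, and a Sox core motif. The Sox core was searched in the form ACAATG and separately in the other common form, ACAAAG. Every motif was searched on both strands. CCAAT and ACAATG share the letters CAAT. The Slc1a2 segment is chr2:102706188-102706437 on the plus strand and lies 47779 bases inside the gene start annotated by GENCODE, the Slc1a3 segment is chr15:8710808-8711057 on the minus strand, and the Glul segment is chr1:153899679-153899928 on the plus strand.
Slc1a2: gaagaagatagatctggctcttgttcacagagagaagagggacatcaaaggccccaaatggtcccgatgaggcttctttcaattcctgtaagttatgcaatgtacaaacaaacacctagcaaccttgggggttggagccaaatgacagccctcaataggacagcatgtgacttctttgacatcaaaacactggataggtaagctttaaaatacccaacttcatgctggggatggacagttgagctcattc
Slc1a3: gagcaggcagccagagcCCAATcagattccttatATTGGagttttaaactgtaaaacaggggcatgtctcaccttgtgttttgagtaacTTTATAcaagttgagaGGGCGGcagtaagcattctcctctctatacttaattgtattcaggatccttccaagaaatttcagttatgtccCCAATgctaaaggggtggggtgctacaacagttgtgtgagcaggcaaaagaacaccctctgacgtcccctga
Glul: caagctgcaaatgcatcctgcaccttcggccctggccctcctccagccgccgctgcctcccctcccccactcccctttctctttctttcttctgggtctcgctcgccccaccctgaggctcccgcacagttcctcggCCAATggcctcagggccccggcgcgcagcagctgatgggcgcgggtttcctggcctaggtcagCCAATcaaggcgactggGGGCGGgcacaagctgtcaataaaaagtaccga
The Slc1a2 segment held none of the motifs, the Slc1a3 segment held CCAAT 3 times with GGGCGG and TATAAA once each, and the Glul segment held CCAAT 2 times and GGGCGG once. CCAAT occurred in 33.9% of 32851 RefSeq promoter segments of the same length, GGGCGG in 32.7% and TATAAA in 12.4%. The segments of 7 members were searched, those of Slc1a1, Slc1a2, Slc1a3, Slc1a4, Slc1a6, Glul and Slc38a5. Neither Sox core was found in any of them, and 25.2% of all promoter segments held one or the other. GGGCGG was found in 6 of the 7, all but Slc1a2, whose segment does not lie before the gene start annotated by GENCODE. A letter match describes the window only.

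Slc1a2, the transporter that carries most glutamate uptake in the forebrain, fell by the largest absolute amount. Its gene spans chr2:102658659-102790784 on the plus strand (GENCODE M21, GRCm38, as for all positions of genes here). It stood at 253397, 279165 and 244122 normalized counts in control replicates 1 to 3 and at 9958, 19286 and 11787 in Sox9 KO replicates 1 to 3. The groups were far apart, and Sox9 KO replicate 2 kept the highest level among the knockouts. The means were 258895 ± 18157 and 13677 ± 4943 (SD, n = 3 each), an 18.9-fold difference. The log2 change was −4.30 (SE 0.21, 95% interval −4.76 to −3.84), with an adjusted p of 6.3e-08 in limma. Only 1.39% of tested genes had a lower log2 change.

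Slc1a3, which encodes the transporter of radial glia and of most young and mature astrocytes, fell less. Its gene spans chr15:8634124-8710764 on the minus strand. Its levels were 68899, 67325 and 61695 normalized counts in the controls and 11245, 9958 and 8983 in the knockouts, and here replicate 2 did not stand above the other knockouts. The means were 65973 ± 3788 and 10062 ± 1135 (SD, n = 3 each), a 6.56-fold difference. The log2 change was −2.72 (SE 0.11, 95% interval −2.96 to −2.48, limma adjusted p = 2.3e-08), and its interval did not reach that of Slc1a2. A total of 9.20% of tested genes had a lower log2 change.

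The balance between the astrocytic transporters shifted within each library, a quantity that does not depend on how libraries were scaled. Reads on Slc1a2 exceeded those on Slc1a3 by 3.68, 4.15 and 3.96 times in the controls, and the ratios were 0.886, 1.94 and 1.31 in the knockouts. On the log2 scale the ratio of Slc1a3 to Slc1a2 was higher by 1.58 in Sox9 KO libraries, with no overlap. The exact two-sided permutation test gave p = 0.1, which is the smallest value that 3 against 3 libraries allow.

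The other glutamate transporters, Slc1a1 at chr19:28835049-28913960 on the plus strand and Slc1a6 at chr10:78780496-78814765 on the plus strand, were far less abundant. Slc1a1 encodes EAAC1, a transporter found mainly on neurons, and its levels were 552, 539.5 and 695 normalized counts in controls against 50.6, 100.3 and 131 in knockouts. No knockout library came near a control library. The means were 596 ± 86.4 and 93.8 ± 40.4 (SD, n = 3 each), with a log2 change of −2.75 (SE 0.31, 95% interval −3.43 to −2.06, limma adjusted p = 2.3e-05). This change sat beside a median of −2.51 over the 14 neuron markers and of −4.25 over the 16 astrocyte markers, and the part of either cell type in it was not tested. Part of the Slc1a1 locus is overlapped on the opposite strand by the gene 4430402I18Rik, and the sources read here do not state whether counting used strand.

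Slc1a6, the transporter best known from cerebellar Purkinje cells, was at the edge of detection. Its values were 8.77, 20.0 and 6.30 normalized counts in the controls and 0.99, 5.13 and 1.52 in the knockouts, from 6, 29 and 4 reads against 1, 13 and 1 reads. The closest libraries were Sox9 KO replicate 2, with 13 reads, and control replicate 3, with 4 reads. The separation therefore rested on few reads. The log2 change was −1.87 (SE 0.68, 95% interval −3.38 to −0.35, limma adjusted p = 0.035). The call was lost with edgeR (adjusted p = 0.069), with DESeq2 (adjusted p = 0.094) and with quantile normalization (adjusted p = 0.15). It was also lost without Sox9 KO replicate 1 (adjusted p = 0.11) or 3 (adjusted p = 0.09), and without control replicate 1 (adjusted p = 0.062) or 2 (adjusted p = 0.12).

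**Figure D2:**
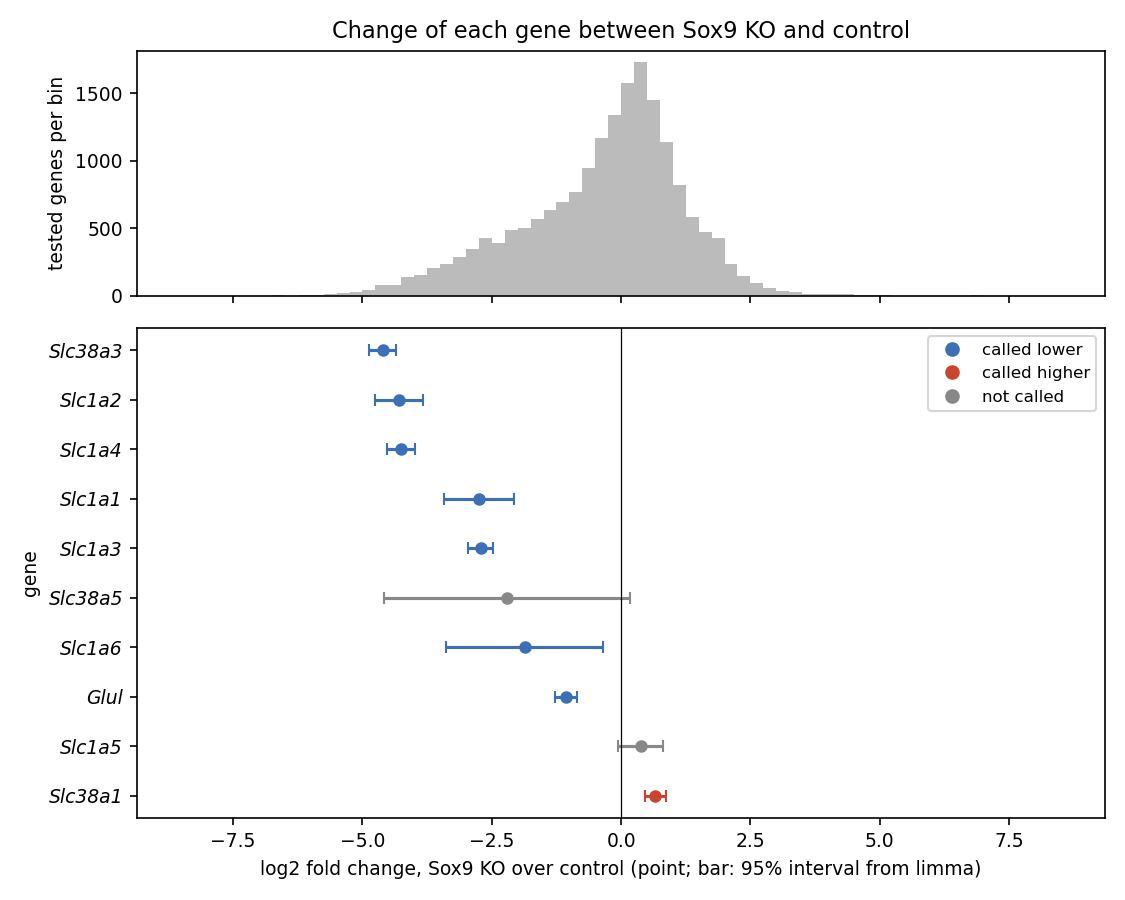
Log2 change of each of the 10 genes (Sox9 KO minus control, limma on log2(normalized count + 1)) with its 95% interval (lower panel), under the distribution of changes over all 18413 tested genes. Slc38a3, Slc1a2 and Slc1a4 lie below −4, Slc1a1 and Slc1a3 near −2.7, Glul near −1.1, and the intervals of Slc1a5 and Slc38a5 cross 0.

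Dividing by the length of the longest annotated transcript allows the genes to be set beside each other. Per kilobase, Slc1a2 stood at 22328 ± 1566 and Slc1a3 at 14875 ± 854 normalized counts in controls (SD, n = 3 each), ranks 17 to 22 and 33 to 39 among 23350 genes. In knockouts they stood at 1180 ± 426 and 2269 ± 256, ranks 839 to 1966 and 583 to 700, so that Slc1a3 overtook Slc1a2. The summed per-kilobase level of the 4 glutamate transporters was 37366 ± 2134 in controls and 3474 ± 434 in knockouts, a 10.8-fold difference.

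Slc1a2 made up 58.2%, 61.1% and 59.9% of that summed level in the controls and 25.2%, 42.2% and 33.0% in the knockouts. Slc1a3 made up 41.4%, 38.5% and 39.6%, and then 74.4%, 57.0% and 65.8%. The leading transporter thus differed between genotypes in every library. Slc1a1 contributed 0.42% ± 0.09 in controls and 0.73% ± 0.37 in knockouts (SD, n = 3 each). Which transporter leads in knockouts depended on the length used: with the union of exons Slc1a2 held 71.6% in controls and 45.8% in knockouts, and with no length correction 79.5% and 56.3%.

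**Figure D3:**
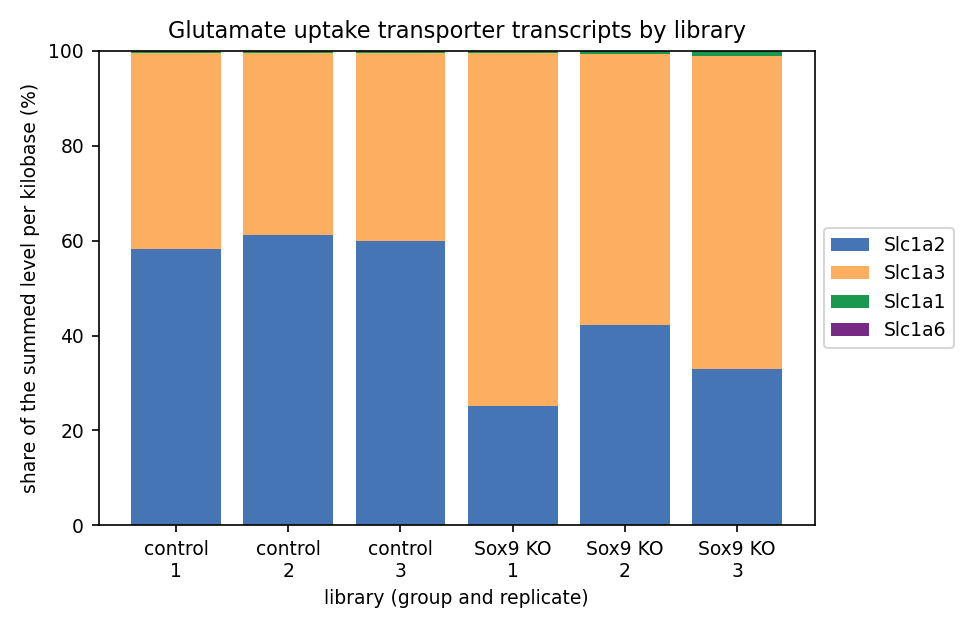
Share (%) of Slc1a1, Slc1a2, Slc1a3 and Slc1a6 in their summed per-kilobase level, 1 bar per library. Slc1a2 takes 58.2% to 61.1% of the control bars and 25.2% to 42.2% of the Sox9 KO bars, with Slc1a3 filling nearly all of the rest.

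The exchangers of neutral amino acids in the same gene family, Slc1a4 at chr11:20302180-20332713 on the minus strand and Slc1a5 at chr7:16781340-16798274 on the plus strand, did not share a result: Slc1a4 fell and Slc1a5 was not called. Slc1a4 encodes ASCT1, which exchanges alanine, serine, cysteine and threonine and supplies neurons with astrocytic L-serine. It stood at 10235, 9275 and 8015 normalized counts in controls and at 429, 466 and 541 in knockouts, with little spread inside either group. The means were 9175 ± 1113 and 479 ± 57.0 (SD, n = 3 each), a 19.2-fold difference and a log2 change of −4.26 (SE 0.12, 95% interval −4.53 to −3.99, limma adjusted p = 4.9e-09). Slc1a5 encodes ASCT2, a glutamine exchanger prominent in proliferating cells. Its levels were 196, 198 and 164 normalized counts in controls and 210.5, 226 and 295 in knockouts, each knockout being higher than each control by a narrow margin. The means were 186 ± 18.9 and 244 ± 44.8 (SD, n = 3 each). The log2 difference was 0.38 (SE 0.19, 95% interval −0.05 to 0.81, limma adjusted p = 0.11), which does not pass, and it was 0.93 with quantile normalization (adjusted p = 0.0018) and 0.05 with scaling to totals without the ribosomal transcript Rn45s.

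Glul, the glutamine synthetase that defines the astrocytic arm of the cycle, fell much less than the transporters that feed it. Its gene spans chr1:153899944-153909723 on the plus strand. It stood at 62874, 64031 and 59873 normalized counts in controls and at 29331, 30562 and 28885 in knockouts, with less relative spread than any other member in the control group except Slc38a1. The means were 62259 ± 2146 and 29593 ± 869 (SD, n = 3 each), a 2.10-fold difference. The log2 change was −1.07 (SE 0.09, 95% interval −1.28 to −0.86, limma adjusted p = 4.1e-06), and 27.8% of tested genes had a lower one. Per kilobase, Glul was at 22299 ± 769 in controls and 10599 ± 311 in knockouts, ranks 19 or 20 and 99 to 119 among 23350 genes. It was the most abundant of the 10 genes in every knockout library.

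Within libraries, reads on Slc1a2 exceeded reads on Glul by 4.03, 4.36 and 4.08 times in controls, while the ratio was 0.340, 0.631 and 0.408 in knockouts. The log2 ratio of Glul to Slc1a2 was higher by 3.23 in Sox9 KO libraries with no overlap, at the smallest exact permutation p of 0.1. Reads on Slc1a3 and Glul were nearly equal in controls, with ratios of 1.10, 1.05 and 1.03, and the ratios were 0.383, 0.326 and 0.311 in knockouts. Glul thus kept more of its level than either astrocytic glutamate transporter under every scaling of the libraries. The small genes Teddm2, on the opposite strand, and Mir8114 overlap Glul.

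The system N and system A glutamine transporters gave 1 fall, 1 rise and 1 gene not called. Slc38a1 lies at chr15:96571418-96642913 on the minus strand, Slc38a3 at chr9:107650634-107669530 on the minus strand and Slc38a5 at chrX:8271133-8280179 on the plus strand. Slc38a3, the glutamine exporter of astrocytes, had the most negative log2 change of the 10 genes. Its levels were 14960, 12385 and 10950 normalized counts in controls against 502, 536 and 513 in knockouts. The knockout libraries sat within a narrow band far below the controls. The means were 12765 ± 2032 and 517 ± 17.2 (SD, n = 3 each), a 24.7-fold difference and a log2 change of −4.61 (SE 0.12, 95% interval −4.87 to −4.35, limma adjusted p = 3.8e-09). Only 0.880% of tested genes had a lower log2 change.

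Slc38a1, a glutamine importer of neurons, in particular GABAergic ones, was the member that rose. It stood at 2584, 2513 and 2662 normalized counts in controls and at 3999.7, 4439.9 and 3839 in knockouts, without overlap. The means were 2586 ± 74.5 and 4093 ± 311 (SD, n = 3 each), a 1.58-fold rise with a log2 change of 0.66 (SE 0.09, 95% interval 0.46 to 0.86, limma adjusted p = 9.5e-05). The direction held under each scaling but the size did not: the log2 difference was 0.41 with quantile normalization, 0.42 with scaling to total reads and 0.33 with totals without Rn45s, all under 1.5-fold. Slc38a1 rose while 13 of the 14 neuron markers fell and 14 of the 15 microglia and macrophage markers rose, and the part of either cell type in its change was not tested.

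Slc38a5, a glutamine exporter related to Slc38a3, was barely detected. The controls held 8.77, 5.51 and 23.6 normalized counts from 6, 8 and 15 reads, and the knockouts 0, 0 and 15.2 from 0, 0 and 10 reads. The groups overlapped because of Sox9 KO replicate 3. The log2 difference was −2.20 (SE 1.07, 95% interval −4.58 to 0.18, limma adjusted p = 0.099), and without that library it was −3.54 with an adjusted p of 0.0056. In the knockout libraries without a read, a count of 0 allows up to 2.98 and 1.18 normalized counts, below each control value. The third knockout library, with 10 reads, lay inside the control range.

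The members were next set beside the astrocyte markers, since the summed marker level itself was 13.4-fold lower in knockouts. For each library the log2 ratio of a member to the summed astrocyte markers was taken, and the groups were compared with an exact two-sided permutation test. The ratio was lower in knockouts for Slc38a3, with a log2 difference of −0.87, and for Slc1a4, with −0.51, without overlap of the groups. The sum is weighted towards its most abundant markers, Aqp4 and Slc4a4, whose log2 changes were −3.26 and −3.20. On the log2 scale the mean sum changed by −3.74, less than the median of −4.25 over the 16 markers. Slc1a2, at −4.30, and Slc1a4, at −4.26, lay close to that median. The ratio of Slc1a2 differed by −0.55 and its groups overlapped (p = 0.2, adjusted p = 0.222 over the 10 members by exact permutation), so no difference of Slc1a2 from the marker sum was shown. Relative to the markers, the level of Slc1a3 was higher by 1.03, Slc1a1 by 1.00, Slc1a6 by 1.88, Glul by 2.67, Slc1a5 by 4.13 and Slc38a1 by 4.41, none with overlap. Each of these 8 separated members had the smallest exact permutation p of 0.1, 0.125 after adjustment, so none could pass. Slc38a5 differed by 1.55 with overlap (exact permutation p = 0.4). The ratios of Slc1a6 and Slc38a5 rested on few reads and on the pseudocount of 1. With a pseudocount of 5 they differed by 2.65 and 2.73, each at an exact permutation p of 0.1.

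Single markers were also set beside the members. Of the 16 astrocyte markers, 2 had a lower log2 change than Slc38a3, 6 than Slc1a2 and 7 than Slc1a4, which places these 3 genes inside the range of the markers, −5.25 to −3.10. All 16 had a lower log2 change than Slc1a1, Slc1a3, Slc1a6, Glul and Slc38a5. The summed microglia and macrophage markers were 4.01-fold higher in knockouts, and the part of these cells in the levels of Slc1a3, Glul, Slc1a5 and Slc38a1 was not tested.

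**Figure D4:**
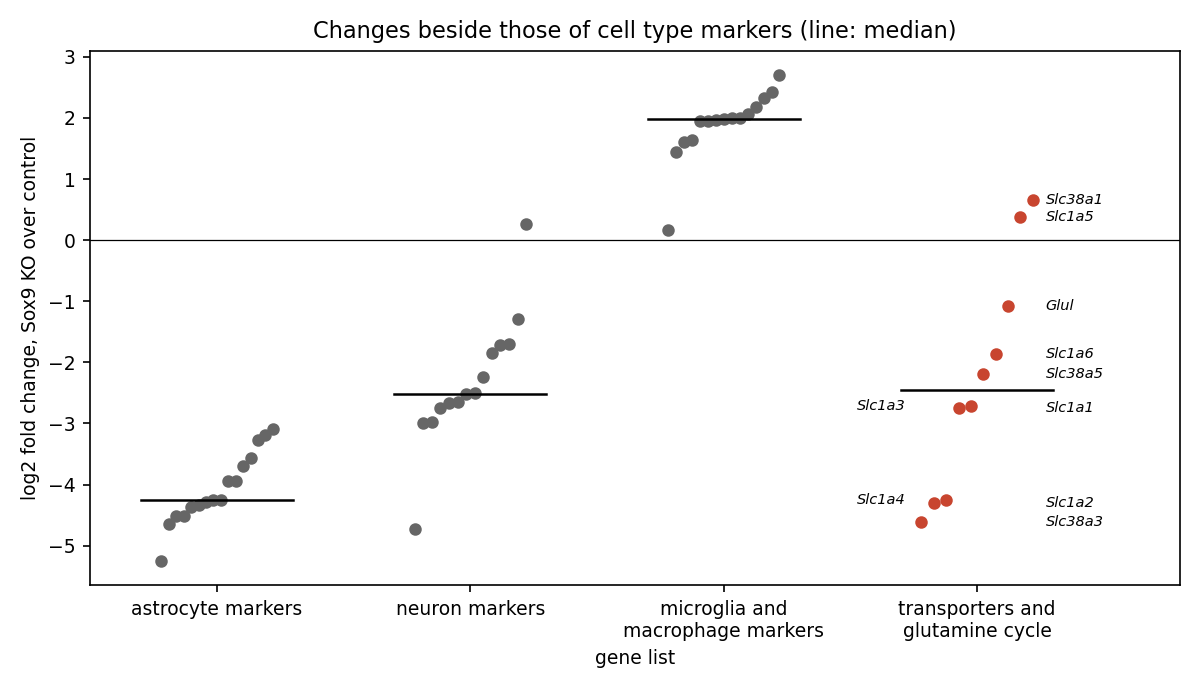
Log2 change (Sox9 KO minus control) of the 10 genes beside the changes of the 16 astrocyte, 14 neuron and 15 microglia and macrophage markers, 1 point per gene, with lines at the medians. Slc38a3, Slc1a2 and Slc1a4 fall within the astrocyte markers (−5.25 to −3.10), and the other members lie above all of them.

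The wider pathway was described with 49 further genes of glutamate and glutamine metabolism and transport, of which 47 were tested. Of these, 23 were lower, 11 higher and 13 not called, with a median log2 change of −0.62. The background shares are the 28.8% lower and 22.2% higher given above for all tested genes. The list was chosen with earlier results of these data known, and no test was made over it.

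Gls2, the liver-type glutaminase, was scarce and fell from 19.1 ± 6.71 to 3.70 ± 1.85 normalized counts (SD, n = 3 each; log2 change −2.14, SE 0.56, limma adjusted p = 0.0072).

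Of 7 genes for glutamate dehydrogenase and transaminases, 4 fell and 1 rose. The rise, of Bcat2, was not called with either scaling to totals or without Sox9 KO replicate 1. Glud1, the mitochondrial glutamate dehydrogenase, fell from 37005 ± 2564 to 13053 ± 754 normalized counts (log2 change −1.50, limma adjusted p = 3.8e-07). The aspartate transaminases Got1 and Got2 were not called, with log2 differences of −0.01 and 0.26. Of 4 genes that lead from proline and ornithine to glutamate, 3 fell, with log2 changes of −1.36 for Oat, −3.10 for Prodh and −3.11 for Aldh4a1. The decarboxylases all fell, among them the GABA-synthesizing Gad2, from 3210 ± 683 to 481 ± 165, and Gad1, with a log2 change of −3.13.

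Among 9 genes for glutamine-using enzymes, 4 fell and 2 rose. The counts were 2 lower and 2 higher with quantile normalization, 5 and 1 with either scaling to totals, and 4 and 1 without Sox9 KO replicate 1. They were 3 and 2 with edgeR, with its TMM scaling in limma and with a pseudocount of 5. The same counts came without Sox9 KO replicate 2 or 3 or control replicate 2 or 3, and 5 and 2 without control replicate 1. The largest fall was of Gfpt2, with a log2 change of −3.30 (limma adjusted p = 4.1e-06). Ctps2, a CTP synthase, rose with a log2 change of 1.08, while Gfpt1 and Gmps were not called, with log2 differences of 0.15 and 0.10. For glutathione synthesis, Gclm and Gss fell with log2 changes of −1.22 and −1.21, and Gclc, with −0.45, was called, among the settings run, only with quantile normalization and with either scaling to totals. Slc7a11, the cystine-glutamate exchanger subunit, fell from 4346 ± 203 to 1569 ± 526 normalized counts (log2 change −1.53, limma adjusted p = 0.00014), whereas its partner Slc3a2 differed by 0.15 and was not called. Of 4 genes for mitochondrial glutamate carriers, 2 fell and 1 rose. Slc25a18 fell from 3625 ± 732 to 353 ± 51.4 (log2 change −3.35, limma adjusted p = 6.2e-08), and Slc25a12 fell by 0.69 on the log2 scale. The rise was of Slc25a13, with a log2 change of 0.995 (limma adjusted p = 0.002). Slc25a22, with −0.45, was called, among the settings run, only with either scaling to totals. Of the vesicular glutamate transporters, Slc17a6 fell by 1.31 on the log2 scale, and Slc17a7 and Slc17a8 were not called. With quantile normalization Slc17a6 had a log2 difference of −0.44 and was not called (limma adjusted p = 0.32). Slc17a7, at −0.90, was called lower with either scaling to totals (limma adjusted p = 0.028 and, without Rn45s, 0.021) and without Sox9 KO replicate 2 (log2 change −1.42, adjusted p = 0.0012).

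The other glutamine and neutral amino acid transporters went mostly the other way. Of 9 tested, 7 rose and 2 fell. One of the falls, of Slc38a4, came from 8, 19 and 5 reads in controls against 1, 5 and 4 in knockouts (log2 change −1.75, limma adjusted p = 0.036). It was not called with edgeR (adjusted p = 0.074), DESeq2 (0.091), quantile normalization (0.17) or a pseudocount of 0.1 (0.051). It was also lost without Sox9 KO replicate 1 (adjusted p = 0.12) or 2 (0.083) and without control replicate 1 (0.083) or 2 (0.094). The other fall, of Slc7a5, went from 2753 ± 361 to 481 ± 115 normalized counts (log2 change −2.53, limma adjusted p = 6.1e-07). Slc7a8, a light chain for large neutral amino acids, rose from 5002 ± 240.2 to 12208 ± 1578 normalized counts (log2 change 1.28, SE 0.11, limma adjusted p = 2.4e-06). Slc38a10 and Slc38a2, relatives of the glutamine transporters above, rose with log2 changes of 0.68 and 0.59. The 7 stayed above 0 under every scaling, but 5 were called with quantile normalization, 4 with scaling to total reads and 3 with totals without Rn45s. Slc38a10 and Slc38a2 were called in none of these scalings. Fewer than 7 were called in other settings too: 6 with DESeq2, without Sox9 KO replicate 2, and without control replicate 1 or 3. The regulators Arl6ip5 and Ajuba were not called, except Ajuba with quantile normalization, where its log2 difference was 1.08 in place of 0.24. The retinal glutamate transporter Slc1a7 and the amino acid transporter Slc38a8 were under the mean of 1, with 0 reads in every knockout library.

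**Figure D5:**
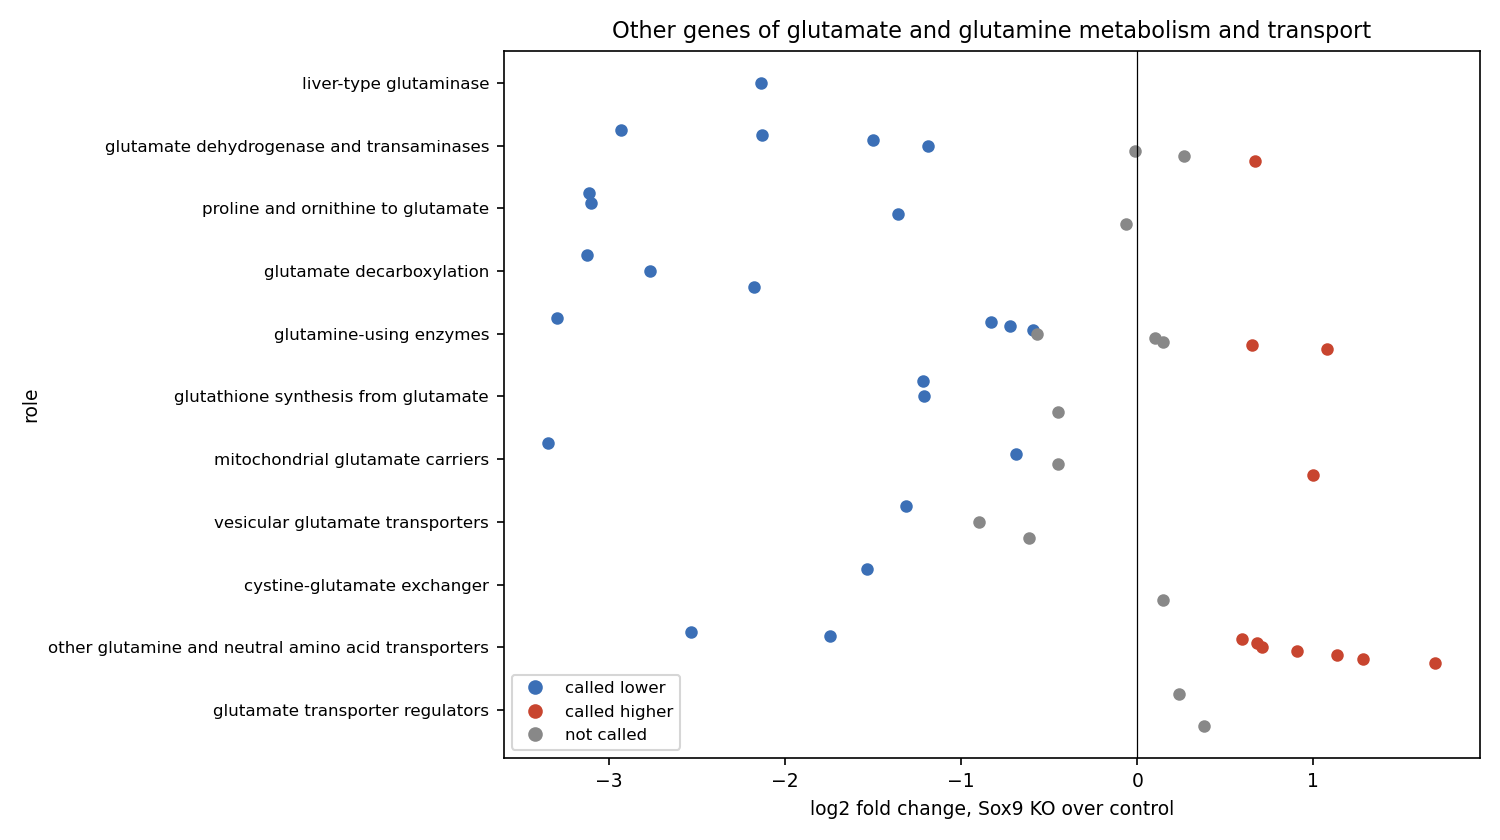
Log2 change (Sox9 KO minus control, limma) of the 47 tested pathway genes by role, 1 point per gene, with called genes distinguished from genes not called. The decarboxylases lie below 0, and 7 of 9 other glutamine and neutral amino acid transporters lie above 0.

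Genes with a pattern most like Slc1a2 and Glul over the 6 libraries were listed by Pearson correlation of log2 levels among 11926 genes with a mean of at least 100. For Slc1a2 they were Lynx1, Arhgap35, Chst11, Nrxn2 and Ntm, with r between 0.9996 and 0.9999. For Glul they were Epb4.1l1, Slc41a1, Gstm5, Chrdl1 and Mpped2, with r between 0.9997 and 0.9999. Such values were common, since 816 genes reached 0.99 with Slc1a2 and 856 with Glul, and 6 points in separate genotypes share the step between them. The size of the change was not matched: Arhgap35 changed by −1.34 on the log2 scale beside −4.30 for Slc1a2, and Mpped2 by −3.77 beside −1.07 for Glul.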

How the data were processed

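RNA-seq libraries were made by the authors from total RNA of sorted cells with a whole-transcriptome kit (NuGEN Trio). According to the submitters' processing notes and the study's methods, reads were checked with FastQC and MultiQC, aligned to mm10 with STAR 2.5.0a, counted per gene and normalized with DESeq2 1.20.0. The sources read here name neither the gene annotation nor the use of strand. The deposited values are a signal per gene, named RPM in the files, but they were found to be counts of reads that had each been divided by a constant for the library: every value was a whole number of reads within 0.01 reads. For Sox9 KO replicate 1 that step was 0.993 and the size factor 1.007, so its values lay close to its read counts without being whole numbers. The deposited values are called normalized counts here.

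Fits used limma 3.58.1 in R 4.3.3 with a mean-variance trend on log2(value + 1), two-sided, over 18413 genes with a mean of at least 1 (6008 left out), adjusted by Benjamini-Hochberg. A fold change on this scale understates the change of low genes. Calls needed an adjusted p under 0.05 and 1.5-fold. Ratios within libraries used exact permutation tests. Recovered reads were tested with edgeR 4.0.16 and DESeq2 1.42.0 as alternatives, beside other pseudocounts, filters and scalings, each library left out in turn and a replicate block. The fitting steps were tested on simulated data in which a small share of genes changed, in both directions, so the choice of scaling was not tested there. Replicates of 1 group differed by more than sampling noise, so no library was a copy of another. Each library came from 1 mouse. Lengths and positions came from GENCODE M21 (mm10) and upstream sequences from RefSeq (GRCm38.p6), where 7 of 10 members matched. The 95% intervals come from limma and cover the spread between libraries, whereas the floors of reads cover counting error only.

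The members, pathway genes and marker lists were chosen with earlier results of these data known, and 1 further pathway gene is not reported here. Named were all 10 members, up to 3 pathway genes per role by mean level, Sox9, up to 2 markers per list and 5 genes most like Slc1a2 and Glul. Additions made after values were seen were Slc38a4, Slc7a5, Gfpt2, Bcat2, Slc25a13, Fcrls, Elavl4, Slc1a7, Slc38a8 and the genes that overlap members.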

Additional observations from a re-analysis of the deposited data

How the results depend on the processing

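Of 372 recomputed results, 351 kept their direction and their side of the threshold or moved little. A further 10 lost and 3 gained a call, 8 moved and 0 reversed. The 351 include the ratios within libraries, each at 7 settings. Their exact permutation p could not go below 0.1, so they could not cross the threshold under any setting. The number of members called higher was 1, and it was 0 with scaling to total reads and with totals without Rn45s. With quantile normalization it was again 1, but that gene was Slc1a5 and not Slc38a1. The number of pathway genes called higher was 11, and it was 6 with total scaling and 5 with totals without Rn45s. These scalings moved the median log2 change of all genes by −0.23 and −0.31, and quantile normalization moved it by 0.26. Of all calls, 56.4% were lower, 67.8% with total scaling, 71.5% with totals without Rn45s and 43.5% with quantile normalization. The share of Slc1a2 in the summed transporter level went from 59.7% to 71.6% (union of exons) and 79.5% (no length correction) in controls, and from 33.5% to 45.8% and 56.3% in Sox9 KO libraries. Leaving out 1 library at a time gave 6 to 7 members lower, 21 to 23 pathway genes lower, 9 to 11 higher and 8748 to 9111 genes called in all. It gave a Slc1a2 share of 59.1% to 60.5% in controls and 29.1% to 37.6% in knockouts. With a minimum mean of 10, Slc1a6 and Slc38a5 were not tested. Beyond the construction of each scaling, the cause was not tested.

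No pairing by replicate number was seen over all tested genes: same-numbered libraries had correlations of deviations of −0.05, −0.01 and −0.01. Whether same-numbered libraries shared a batch was not tested. The replicate block called 8 members lower in place of 7, Slc38a5 having an adjusted p of 0.031, and 9275 genes in all in place of 9389. Under it Slc17a7 gained a call (adjusted p = 0.040) and Slc38a4 lost one (adjusted p = 0.058). A floor of 3 reads corresponded to 1.18 to 4.73 normalized counts, which limits what Slc1a6 can show.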
